A study of Gallus gallus with 4 samples.

Results

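The cytosolic ribosomal protein genes were taken as the genes whose symbol is RPL or RPS with a number and at most 1 further letter, together with RPLP0, RPLP1, RPLP2 and RPSA, and without the RPS6K kinases. The chicken RefSeq annotation holds 67 such symbols, and probes matched by RefSeq accession measured 45 of them, 30 of the large subunit and 15 of the small, among 4807 genes measured in all. All 88 probes of these 45 genes were well above background on all 4 arrays, so no measured member was lost to the filter on dim probes. The other 22 symbols, with no probe matched here, included RPL10A, RPL11, RPL14, RPL15, RPL21, RPL23, RPL23A, RPL24, RPL36A, RPLP2, RPS15A, RPS16, RPS20, RPS21, RPS23, RPS25, RPS26, RPS27, RPS27A, RPS28 and RPS7. By the letter L the rule also takes in RPL3L, RPL39L and RPS27L, which are named as paralogues of RPL3, RPL39 and RPS27. RPL39 is listed in the annotation as a synonym of RPL39L.

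The study asked what violet light does to the back of the chick eye, with and without goggles that induce myopia. From day 6 after hatching a glass goggle was placed over the right eye, while the left eye was left without one as the control. The chicks kept the goggles on for 7 days with lights on for 12 hours a day, and chorioretinal tissue (retina with choroid) was cut as buttons 6 mm wide on day 13. RNA of 4 eyes was mixed into each of 4 pools, namely the uncovered normal-light, uncovered violet-light, covered normal-light and covered violet-light pools, from 16 eyes of 8 chicks. The labels name no strain, sex or genotype, and call the tissue retina. Each pool was read on 1 array, so no difference below has an error between animals and none has a replicate check. Within one light the covered and uncovered eyes came from the same chicks, whereas the lights separate 2 sets of chicks.

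A cytosolic ribosome joins a small subunit, which reads the mRNA, to a large subunit, which forms the peptide bonds and carries a flexible stalk that recruits elongation factors. Most ribosomal proteins are needed in equal number, and in vertebrates their mRNAs share a pyrimidine tract at the 5′ end through which mTOR signalling sets their translation. Ribosomal protein mRNAs are abundant in nearly every cell, so in a piece of mixed tissue they do not mark a cell type. In such pools, fewer cells of a type and less RNA per cell cannot be told apart.

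Levels are log2 values of the processed signal from which the 75th percentile of the same array was subtracted, so 0 is the 75th percentile of all probes on the array. That percentile was 2095.1 in uncovered normal light, 1317 in uncovered violet light, 793.2 in covered normal light and 875.7 in covered violet light. Before scaling, the members' median signal was 101289 in uncovered normal, 81642.2 in uncovered violet, 46550.2 in covered normal and 56353 in covered violet light. Unscaled, it was thus highest in uncovered normal light, where the 75th percentile was also highest. The order of pools given below is one of scaled levels. No probe was saturated: the highest member signal was 248719, against a saturation value of 779051. Spots of 43 probes printed 5 times gave a standard deviation (SD) of 0.0831 for a log2 difference between 2 arrays. Differences within 2 of these SD, 0.166, are within spot error, and larger ones exceed spot error only. The spot SD was pooled over the repeated probes and not estimated by brightness, so it may be too wide or too narrow for bright members. Across probes the lowest correlations were those of the uncovered normal-light array with the covered arrays (0.98 and 0.9824). Its correlation with the uncovered violet-light array was 0.9886, against 0.9877 to 0.9926 among the other 3. The scanner files and the authors' value table exchange the labels of the uncovered normal-light and covered violet-light arrays, and the scanner files' labels are used unless stated.

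Markers of other cells also differed between pools. The summed linear level of 4 of 6 striated muscle markers was 0.3, 0.23, 15.594 and 1.075 in uncovered normal, uncovered violet, covered normal and covered violet light. In the same order, 5 of 5 lens markers summed to 0.364, 7.845, 2.347 and 1.167, and 4 of 4 fibroblast markers to 11.486, 4.588, 10.901 and 4.463. The sums were 132.163, 164.751, 156.35 and 163.672 for 4 of 6 photoreceptor markers, 5.422, 4.163, 5.166 and 4.232 for 4 of 5 endothelial markers, and 14.858, 13.224, 19.368 and 16.088 for 2 of 4 erythroid markers. Among the photoreceptor markers the cone arrestin ARR3 was at a log2 level of 6.68, 7.00, 6.55 and 6.54, well above background on all arrays and highest in uncovered violet light. The red cone pigment OPN1LW was at 4.28, 4.59, 5.79 and 5.95 and alone of the 4 had the order of pools described next for the ribosomal protein genes. The cone phosphodiesterase subunit PDE6H was at 3.32, 3.60, 2.86 and 3.05, and the rod transducin GNAT1 at -4.05, -4.23, -4.28 and -4.03. None of these summed marker lists had that order, and the part of these markers in the results was not tested.

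With the signal scaled by the 75th percentile, most ribosomal protein genes were lowest in uncovered eyes under normal light and highest in covered eyes under violet light. Ranks were counted at any gap between pools, also within spot error. The uncovered normal-light pool held the lowest value for 35 of 45 members, against 38.4% of all genes, and the covered violet-light pool the highest for 32, against 28.8%. Both held for 30 members (66.7%), 24 of the 30 large-subunit and 6 of the 15 small-subunit genes, against 20.3% of all genes. This count depended on the scaling: it was 21 with quantile normalization (14.9% of all genes), 21 in the authors' table with the scanner labels (15.4%), 19 with cyclic loess (14.2%) and 17 with scaling by the array's median (8.8%). Relative to each gene's own mean over the 4 pools, the median member lay at -0.28 in uncovered normal light, 0.063 in uncovered violet light, 0.025 in covered normal light and 0.16 in covered violet light. The corresponding medians over all genes were between -0.015 and 0.02. At the probe used, the gap between the highest and lowest pool stayed within spot error for 3 members, against 14.5% of all genes. They were RPL35A, RPL39L (named after its values were seen) and RPS27L. Most top ranks of the covered violet-light pool were within spot error of the next pool. It exceeded covered normal light by more than spot error in 8 members, against 11.6% of all genes. Uncovered violet light was exceeded by as much in 14 members, against 27.3%.

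**Figure D1:**
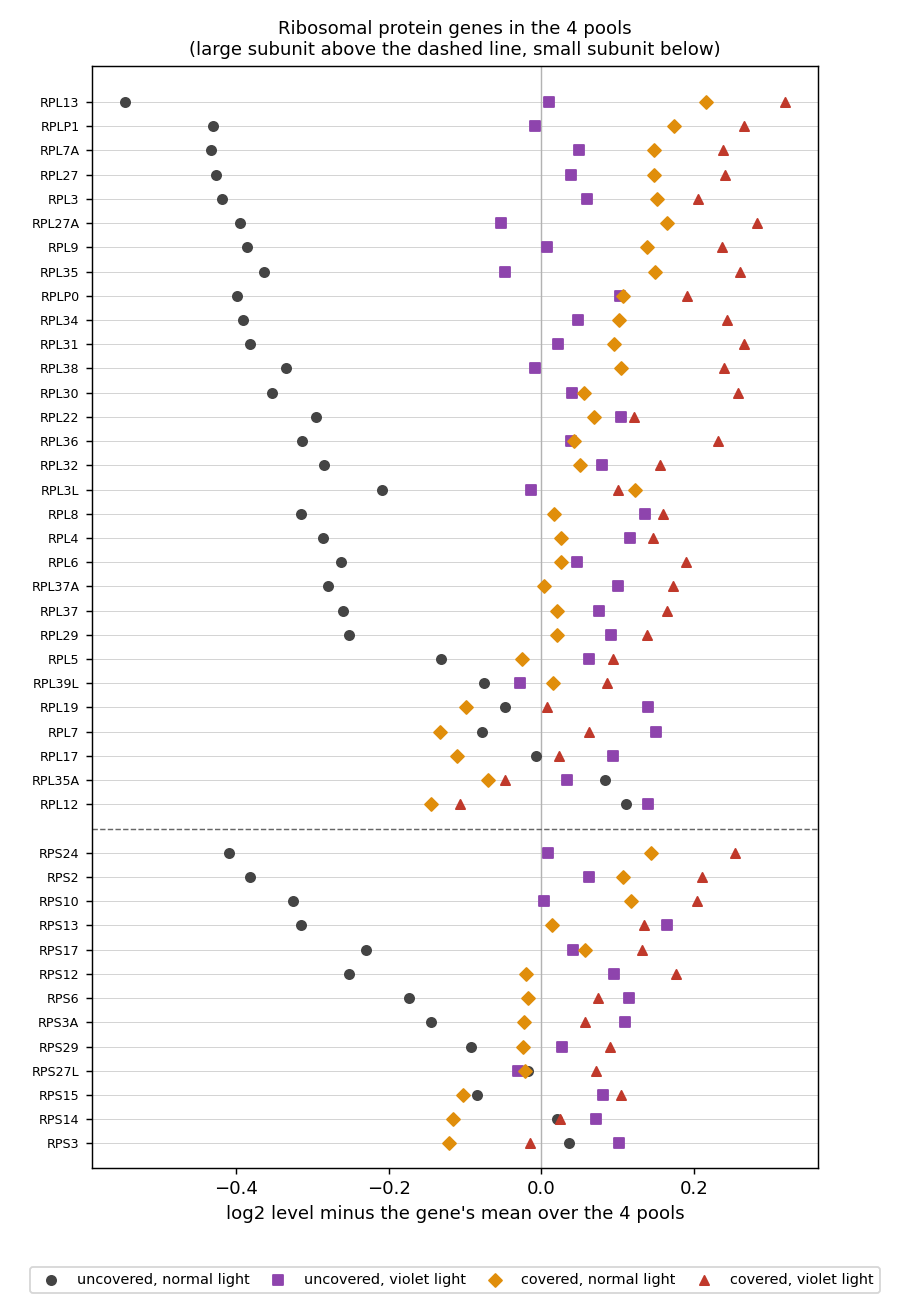
Each row is a gene and each point 1 pool, plotted as its log2 level minus the gene's mean over the 4 pools, with large-subunit genes above the dashed line. Of the 45 members 43 are drawn, and in 34 of these rows the uncovered normal-light pool lies farthest left, and in 32 the covered violet-light pool lies farthest right.

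Part of this order was shared with other bright genes. Among 229 genes that are no members and had a mean level of at least 4, 55.9% were lowest in the uncovered normal-light pool, 46.3% highest in the covered violet-light pool and 38.4% both. The full order uncovered normal, uncovered violet, covered normal, covered violet was found in 19 members, against 15.4% of all genes and 27.5% of the other bright genes. The same order with the middle pools exchanged was found in 11 members, against 4.93% and 10.9%. The uncovered normal-light pool was highest for 1 member, RPL35A, against 36.3% of all genes. The uncovered violet-light pool was highest for 11 members, 7 of them small-subunit genes, against 12.2% of all genes. The covered normal-light pool was lowest for 9 members, against 27.7%.

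**Figure D2:**
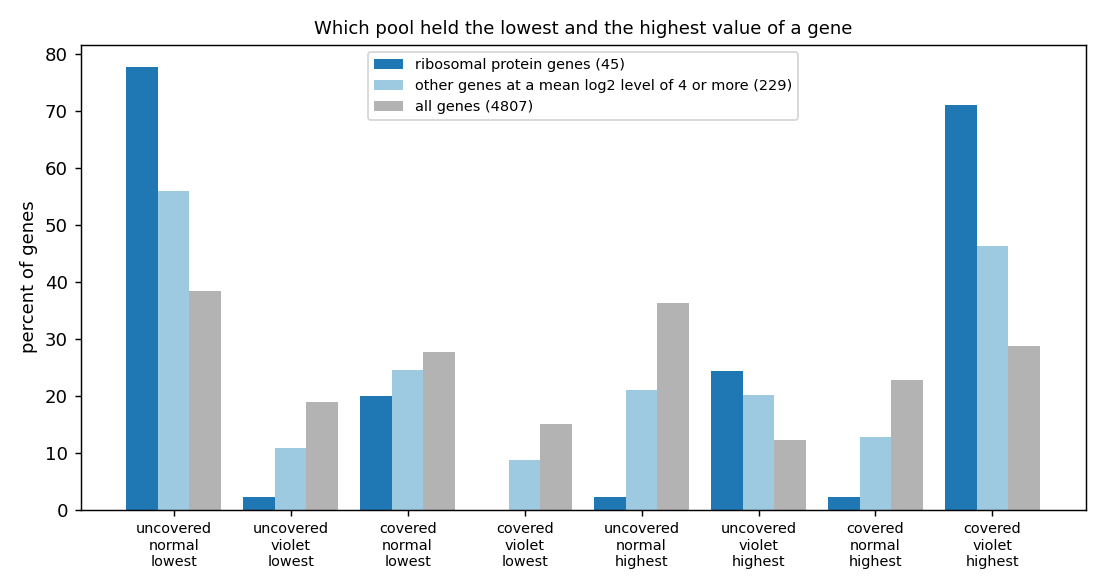
Bars give the percent of genes whose lowest or highest value lay in each pool, for the 45 ribosomal protein genes, 229 other bright genes and all 4807 genes. The bars for uncovered normal light lowest (77.8%) and covered violet light highest (71.1%) are the tallest for the ribosomal protein genes and exceed both other sets.

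Among large-subunit genes, the stalk proteins RPLP0 and RPLP1 followed the common order. RPLP0, the base of the stalk, had levels of 3.41 in uncovered normal, 3.92 in uncovered violet, 3.92 in covered normal and 4.00 in covered violet light. Its uncovered normal-light value stood apart from the other 3. RPLP1, which binds RPLP0 as a dimer with RPLP2, had levels of 6.64, 7.06, 7.25 and 7.34 in the same order. The core protein RPL3, which reaches toward the peptidyl transferase centre, was at 5.48, 5.95, 6.05 and 6.10.

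RPL13 spanned the widest range of all members, with levels of 5.04, 5.59, 5.80 and 5.90 in uncovered normal, uncovered violet, covered normal and covered violet light, a gap of 0.86. RPL7A was at 6.19, 6.67, 6.77 and 6.86, RPL27A at 6.00, 6.35, 6.56 and 6.68, and RPL35, which sits near the exit of the peptide tunnel, at 5.71, 6.02, 6.22 and 6.33. In all 4 genes the uncovered normal-light pool was lowest and the covered violet-light pool highest. RPL30 was at 5.20, 5.59, 5.60 and 5.80, and RPL22, an RNA-binding protein with the paralogue RPL22L1, at 4.36, 4.76, 4.72 and 4.77. RPL37, a zinc-binding protein, was at 3.52, 3.85, 3.80 and 3.94. For RPL22 and RPL37 the covered normal-light and uncovered violet-light pools were within spot error of each other.

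Some large-subunit genes departed from this order. RPL12, a protein of the stalk base, was at 4.63 in uncovered normal, 4.66 in uncovered violet, 4.38 in covered normal and 4.42 in covered violet light, so both covered pools were lower than both uncovered ones. RPL35A was at 5.04, 4.99, 4.88 and 4.91, all within spot error. RPL19 was at 4.21, 4.40, 4.16 and 4.26, with uncovered violet light highest.

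Among small-subunit genes, RPS6, the substrate of the S6 kinases downstream of mTOR, was at 5.48 in uncovered normal, 5.77 in uncovered violet, 5.64 in covered normal and 5.73 in covered violet light. RPS3, at the mRNA entry channel, was at 5.60, 5.66, 5.44 and 5.54. Here the covered normal-light pool was lowest and the uncovered violet-light pool highest. RPS15 was at 6.40, 6.57, 6.39 and 6.59, and RPS29 at 6.89, 7.01, 6.96 and 7.07. For both the pools under violet light lay above those under normal light.

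The genes taken in by the letter L, namely RPL3L, RPS27L and RPL39L, had 2 probes each. RPL3L, whose mammalian counterpart is made in striated muscle, was at -2.37, -2.18, -2.04 and -2.06 in uncovered normal, uncovered violet, covered normal and covered violet light. The muscle markers summed to 15.594 in covered normal and 1.075 in covered violet light, pools within spot error of each other for RPL3L. Their part in its level was not tested. The covered normal-light pool was 0.33 above uncovered normal light. The other probe of RPL3L differed by -0.41 in that comparison, so the direction is not settled. RPS27L, known in mammals as a target of p53, was at 1.63, 1.61, 1.62 and 1.72, within spot error. Its dimmer probe had the common order at 0.32, 0.47, 0.75 and 1.05, with 0.44 between covered and uncovered eyes under normal light. RPL39L had the common order at 4.48, 4.53, 4.57 and 4.64, also within spot error. The dimmer RPL39L probe had this order at 3.94, 4.21, 4.23 and 4.31, with 0.29 between covered and uncovered eyes under normal light. Whether these genes were flat is thus not settled.

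Covered against uncovered eyes under normal light was the first goggle comparison. Ribosomal protein genes were higher in covered eyes by a median of 0.31 on the log2 scale (1.24-fold), against a median of 0.020 over all genes. Of the 45 members 35 were higher, against 51.9% of all genes, and 29 were higher by more than spot error, against 35.1%. Only RPL12 was lower by more than spot error (-0.26), against 32% of all genes. Among the other bright genes 62% were higher, with a median of 0.092, and over the 962 brightest genes the median was 0.039. The members ranged from -0.26 in RPL12 to 0.76 in RPL13 (1.69-fold), so none reached a 2-fold difference, against 4.68% of genes higher and 1.41% lower by that much. Next to RPL13 came RPLP1 (0.60) and RPL7A (0.58), and next to RPL12 came RPS3 (-0.16) and RPL35A (-0.15). A difference of at least 0.5 was found in 10 members, 9 of the large subunit, against 15.1% of all genes. With the mean of a gene's probes the median was 0.24 against 0.10 over all genes, and with its dimmest probe 0.23 against 0.18. Scaling by the array's median put the members at -0.013, with 22 of 45 higher, against -0.30 and 23.4% for all genes. By the authors' table's labels these 2 arrays are the covered pools, normal minus violet light.

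The 24 members outside the rule for named genes, which takes out the extremes of each comparison, ranged from -0.14 to 0.57 here, with a median of 0.32. They ranged from 0.047 to 0.48 for violet against normal light in uncovered eyes, and from 0.071 to 0.20 in covered eyes.

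Under violet light the members differed less between covered and uncovered eyes. The median was 0.088 against 0.046 over all genes, and 33 of 45 were higher, against 58.9% of all genes and 65.5% of the other bright genes. Of these 14 exceeded spot error, against 27.3% of all genes, and 0 reached 0.5, against 3.77%. The members ranged from -0.25 in RPL12 to 0.34 in RPL27A, with RPL13 at 0.31, RPL35 at 0.31 and RPL19 at -0.13. RPL12 was among 2 members lower by more than spot error, against 15.9% of all genes. With the mean of probes the median of the members was 0.031 and that of all genes 0.058, so the order of these medians turned. By the authors' table's labels this is normal against violet light in uncovered eyes.

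Violet against normal light in uncovered eyes gave a similar picture. Members were higher under violet light by a median of 0.34 (1.26-fold), against -0.010 over all genes. Of 45 members 43 were higher, against 48.6% of all genes and 72.1% of the other bright genes, whose median was 0.12. The 2 others were RPL35A (-0.052) and RPS27L (-0.013), with RPL12 next at 0.029. RPL13 (0.55, 1.47-fold), RPLP0 (0.50) and RPL7A (0.48) differed most. More than spot error separated 36 members, all higher under violet light, against 25.7% of all genes higher and 28% lower by as much. RPL13 and RPLP0 reached 0.5, against 6.59% of all genes. The light separates 2 sets of chicks. The uncovered normal-light array, with the lowest correlations to the covered arrays, is part of this comparison and of the goggle comparison under normal light. By the authors' table's labels it is uncovered against covered eyes under violet light.

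In covered eyes nearly all members were higher under violet light, by small amounts. The median was 0.11 (1.08-fold) against 0.029 over all genes, and 44 of 45 were higher, against 59.6% of all genes and 76% of the other bright genes. RPL3L (-0.023) was the exception, with RPL35A at 0.024 and RPL12 at 0.039. RPS15 (0.21) and RPL30 (0.20) were among the highest. The SD over members was 0.049, against 0.36 over all genes. More than spot error was reached by 8 members, all higher, against 11.6% of all genes higher and 14% lower by as much, and 0.5 by 0 members, against 1.23%. In the authors' table the median was 0.012, the same as over all genes, and 31 members were higher, against 54.4%. With cyclic loess it was 0.030 against 0.002, and 35 were higher, against 50.6%. By the authors' table's labels this is uncovered against covered eyes under normal light.

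The 2 arrays whose labels are not in dispute are covered normal light and uncovered violet light. The members lay on both sides of 0 between them: the median of covered normal minus uncovered violet was -0.028, against 0.027 over all genes, and 21 of 45 were higher, against 54.3%. The range ran from -0.30 to 0.22, the highest being RPL27A. More than spot error was reached by 4 members higher, all of the large subunit, against 27.9% of all genes, and by 9 lower, against 20.3%. The 4 were RPL27A, RPL13, RPL35 and RPLP1, and 5 of the 9 were small-subunit genes.

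The goggle difference was smaller under violet than under normal light for 37 of 45 members, against 47.7% of all genes and 61.1% of the other bright genes. The median of this light-by-goggle difference was -0.20, against 0.017 over all genes. In 28 members it was negative and over 0.166 in size, against 27.6% of all genes, and 0 members were positive by as much. The cut of 0.166 was set for 2 arrays. The light-by-goggle difference combines 4 arrays, so its spot error is larger and was not estimated. RPL13 had -0.45, RPL3 -0.43, RPLP0 -0.42 and RPL7A -0.39, while RPL12 (0.010), RPS3 (0.040) and RPS29 (-0.004) were near 0. This value has the same size and sign under both sets of labels, since the exchanged arrays enter it alike. Scaling by the array's median gave a median of 0.019 with 20 members lower, against 23.1% of all genes lower. In the same difference the muscle markers had a median of -3.27 and the lens markers one of -4.26, and their part in it was not tested.

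Between 2 arrays the large-subunit genes had the higher median in each of the comparisons above, whereas their light-by-goggle median was lower (-0.22, against -0.15 in small-subunit genes). Covered minus uncovered under normal light had a median of 0.35 over 30 large-subunit genes (25 higher) and 0.12 over 15 small-subunit genes (10 higher). Over all genes the median was 0.020, with 51.9% higher. Under violet light the medians were 0.11 (25 higher) and 0.023 (8 higher), against 0.046 and 58.9% over all genes. The small-subunit median thus lay below that of all genes there. Violet minus normal light gave 0.36 and 0.27 in uncovered eyes, with 29 and 14 genes higher, and 0.11 in both subunits in covered eyes, with 29 and 15 higher. Among all genes 48.6% were higher in uncovered and 59.6% in covered eyes. In covered eyes the small-subunit median was the higher one with quantile normalization (0.037 and 0.050) and with the mean of probes (0.108 and 0.110). Covered normal minus uncovered violet light gave 0.004 and -0.13. The ranges overlapped throughout: under normal light the goggle difference ran from -0.26 to 0.76 in large-subunit genes and from -0.16 to 0.55 in small-subunit genes. Genes are not replicates, so the gap between subunits has no test. A constant scaling of an array cancels in it, and it was 0.22 in the goggle comparison under normal light, 0.25 with quantile normalization, 0.30 after normexp correction, 0.15 with the mean of probes and 0.12 with the dimmest probe.

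**Figure D3:**
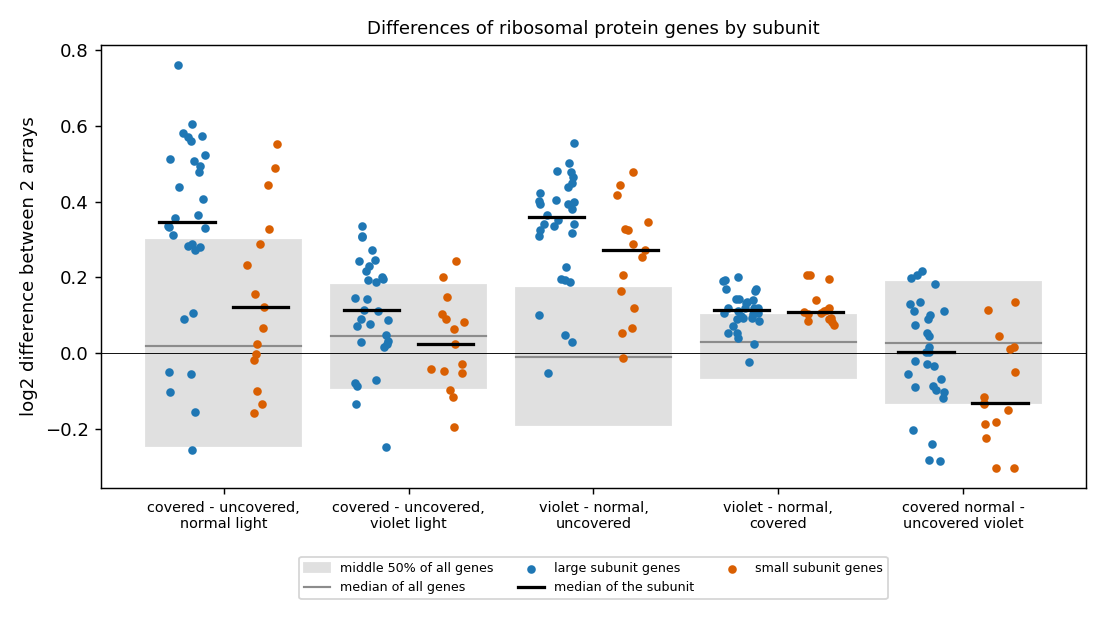
Points are genes and show the log2 difference between 2 arrays in 5 comparisons, for large-subunit (blue) and small-subunit (orange) genes, with black lines for subunit medians. The grey box is the middle 50% of all genes. The large-subunit median lies above the small-subunit median in each comparison, by 0.005 to 0.22.

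Probes of one gene did not always give the same direction. Of 30 members with at least 2 probes, all probes had the same sign in 19 for covered against uncovered eyes under normal light, in 15 under violet light, in 23 for light in uncovered eyes and in 27 for light in covered eyes. The pooled SD between probes of a gene was 0.25, 0.16, 0.14 and 0.062 in these comparisons, against a spot SD of 0.0831. RPL8, chosen here after its values were seen, had 3 probes at 0.33, -0.37 and -0.46 for goggles under normal light. RPS14, chosen in the same way, had 0.80 at its dimmest probe and -0.13 and -0.17 at the others. RPL13 had 0.76 at its brighter and 0.17 at its dimmer probe. Over the 43 probes not used for a gene, 27 were higher in covered eyes under normal light (median 0.20), where 59% of all 35407 passing probes were higher. For goggles under violet light 22 of the 43 were higher (median 0.006), against 62.5% of all probes. For violet light in uncovered eyes 36 of the 43 were higher (median 0.27), against 57.2% of all probes, and in covered eyes 39 were higher (median 0.11), against 57.2%. Sequences shared with near-identical copies were not examined, so values of single genes are uncertain where probes could bind a copy.

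**Figure D4:**
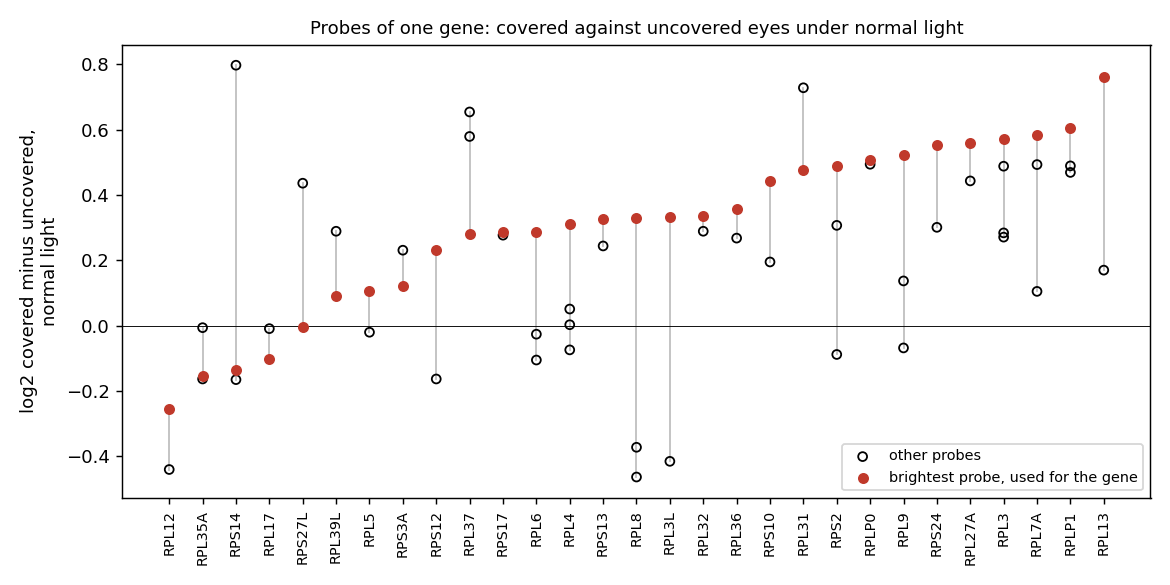
Each column is a member with several probes (29 of the 30 are drawn), and the vertical axis is the log2 difference of covered minus uncovered eyes under normal light. Red points are the brightest probe, used for the gene, and open points the others. RPL8, RPL3L and RPS14 have at least 1 open point on the opposite side of 0 from the red one.

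Scaling moved the size of these differences. Dividing by the array's median in place of the 75th percentile moved the median of all genes to -0.30 for goggles under normal light and to -0.18 for light in uncovered eyes. Since either scaling subtracts 1 value per array, the members' distance from the median of all genes is by construction the same under both, 0.29 and 0.34. With quantile normalization the members lay 0.20 above the median of all genes for goggles under normal light, 0.049 for goggles under violet light, 0.19 for light in uncovered eyes and 0.024 for light in covered eyes. Without the uncovered normal-light array, the covered violet-light pool was the highest of the other 3 for 32 members, against 36.4% of all genes and 52.4% of the other bright genes.

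Under the authors' table's labels the same arrays read in another way. The lowest pool of most members becomes covered eyes under violet light and the highest becomes uncovered eyes under normal light. Covered eyes are then lower, with a median of -0.11 under normal light (1 of 45 higher, against 40.4% of all genes) and -0.34 under violet light (2 of 45 higher, against 51.4%). Violet light is lower too, at a median of -0.088 for uncovered and -0.31 for covered eyes. With quantile normalization under these labels the 4 medians were -0.037, -0.15, -0.052 and -0.15 in the same order. In both sets of labels the exchanged arrays are the lowest and the highest pool for 30 members, against 30.7% of all genes.

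**Figure D5:**
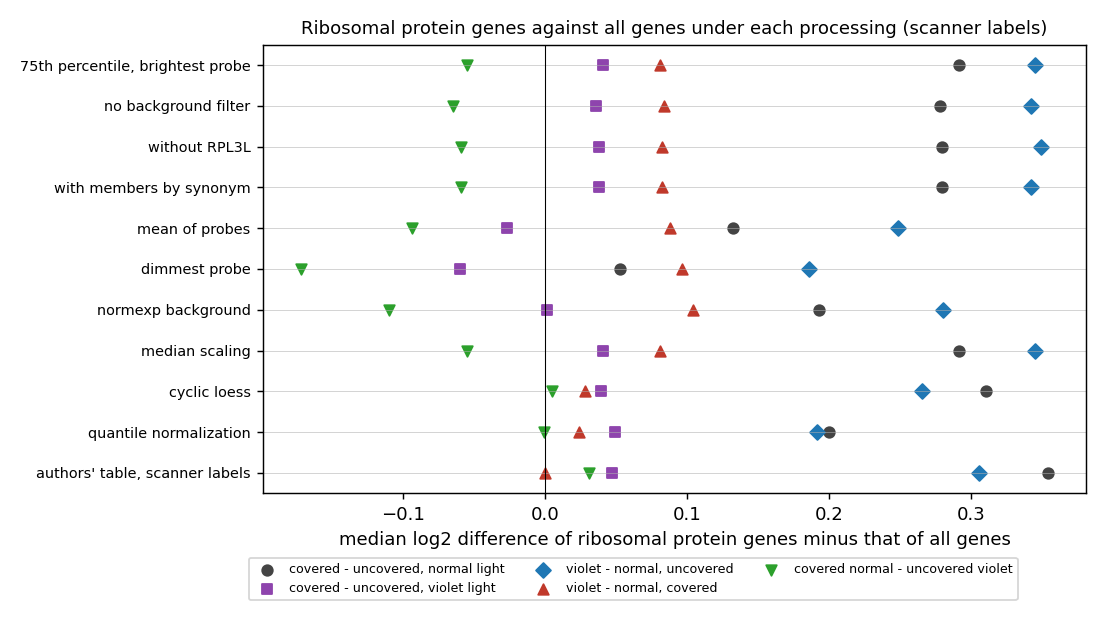
Each row is a way of processing and each point a comparison, plotted as the median log2 difference of the ribosomal protein genes minus that of all genes, with the scanner files' labels. Violet minus normal light in uncovered eyes stays between 0.19 and 0.35, whereas covered minus uncovered eyes under normal light runs from 0.053 with the dimmest probe to 0.35 in the authors' table.

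A fit of goggles with light as a second term was made across all 4807 genes with limma, taking 1 goggle effect for both lights. Its 1 residual degree of freedom is the light-by-goggle difference. There were no replicate pools, so its standard errors do not measure error between animals. At an adjusted p of 0.05 limma called 0 genes (0%) and 0 of 45 members. At an unadjusted p of 0.05 it counted 8 members, all higher in covered eyes, against 19.4% of all genes. RPL13, RPL27A, RPL35 and RPLP1 were among them. Quantile normalization, cyclic loess, median scaling and normexp correction counted fewer members at that threshold. Fewer were also counted with the mean of probes, the dimmest probe, no filter on dim probes and the authors' table. RPL13 had a goggle coefficient of 0.54 with a standard error of 0.16 and a limma adjusted p of 0.244, higher in 2 of 2 lights. Letting the variance follow the level, limma called 103 genes (2.14%), of which 0 were members. At an unadjusted p of 0.05 that fit counted 18 members, 17 higher and 1 lower in covered eyes, against 25.3% of all genes.

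Other parts of the translation machinery were compared in the same arrays. Of 10 listed elongation and related factors 4 were measured, and 3 had the members' order with uncovered normal light lowest and covered violet light highest. That order was found in 20.3% of all genes and 38.4% of the other bright genes. The elongation factors EEF2 (5.92, 6.27, 6.47 and 6.51 in uncovered normal, uncovered violet, covered normal and covered violet light) and EEF1A2 (6.99, 7.37, 7.48 and 7.51) and the translationally controlled protein TPT1 (6.58, 6.89, 6.96 and 7.00) followed it. The poly(A)-binding protein PABPC1 ran the other way, at 4.83, 4.59, 4.26 and 4.30. In EEF2, EEF1A2 and TPT1 covered violet light was above covered normal light by 0.043, 0.034 and 0.033, within spot error.

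Over all genes the median was 0.020 for goggles under normal light and -0.010 for light in uncovered eyes, with 51.9% and 48.6% higher. Initiation factors, with 20 of 43 measured, had medians of 0.094 and 0.084 in these comparisons, with 12 and 14 higher. EIF3J (0.35) and EIF3E (0.33) were highest and EIF1 (-0.54) and EIF3M (-0.35) lowest for goggles under normal light. Ribosome biogenesis factors, with 34 of 82 measured, had medians of -0.092 and -0.014, with 13 and 15 higher. NVL (0.82) and RRP12 (0.75) were highest and RRP1B (-1.24) and RIOK2 (-0.48) lowest for goggles under normal light. Mitochondrial ribosomal proteins, with 36 of 73 measured, had medians of -0.024 and 0.051, with 16 and 23 higher. MRPS21 (0.51) and MRPS5 (0.41) were highest and MRPS34 (-0.63) and MRPS7 (-0.53) lowest for goggles under normal light. The order with uncovered normal light lowest and covered violet light highest was found in 7 of 20 initiation factors, 6 of 34 biogenesis factors and 10 of 36 mitochondrial ribosomal proteins, against 20.3% of all genes. Summed linear levels, in which the brightest genes weigh most, had this order in these lists and in the elongation factors. Most single genes of the initiation, biogenesis and mitochondrial lists did not have it, and no spot error was estimated for the sums. With pools ordered as above, initiation factors summed to 263.731, 272.127, 267.924 and 278, and elongation factors to 312.011, 385.195, 410.99 and 421.344. Biogenesis factors summed to 93.88, 98.476, 99.902 and 102.74, and mitochondrial ribosomal proteins to 147.63, 154.941, 155.325 and 162.025.

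Ribosomal proteins that the annotation names otherwise fell outside the rule. RPSAP58, with RPSA as a synonym, was at 6.21, 6.73, 6.78 and 6.89 in uncovered normal, uncovered violet, covered normal and covered violet light, the common order. RPS4Y1, with RPS4X as a synonym, was at 5.47, 5.64, 5.32 and 5.47, and RPL26L1, with RPL26 as a synonym, at 6.19, 6.42, 6.24 and 6.34. RACK1, a scaffold on the small subunit, was at 5.98, 6.03, 5.93 and 6.04. The paralogue RPL22L1 was at 2.70, 2.99, 2.92 and 3.18, and RPL7L1 at 1.41, 1.35, 1.32 and 1.46. With RPSAP58, RPS4Y1 and RPL26L1 counted as members, 31 of 48 were lowest in uncovered normal light and highest in covered violet light. Of all genes 20.3% were.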

How the data were processed

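Gene expression was measured on 4 Agilent arrays, 1 per pool of chick chorioretinal RNA, with Cy3 label from 100 ng of RNA. Per the submitters' processing notes, Agilent Feature Extraction 11.5.1.1 was used. Spot intensity in the deposited scanner files is already corrected for background and spatial trend, per the file headers. Outlier, saturated and well-above-background spots carry deposited marks of 0 or 1, another unit. The authors deposited a value table of linear intensity with nearly equal column medians (218.35 to 218.67). Its normalization was not given in the sources used here. Its uncovered normal-light column matched the covered violet-light scanner file (correlation across probes 0.99921) better than its own (0.98125), and its covered violet-light column the reverse (0.99974 against 0.98153).

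In Python 3.11.15 and R 4.3.3 with limma 3.58.1, 43803 spots that are not controls were averaged to 43603 probes. Probes were named by unversioned RefSeq accession through RefSeq genes of GRCg7b (11711 probes, 5294 genes). The files name an older build, so no coordinates are given. A probe passed if well above background on all arrays and neither saturated nor marked as an outlier (35407, 10418 of them named, 4807 genes). A gene is its brightest passing probe. Differences between 2 arrays have no test, and counting a gene at 2-fold means a log2 difference of 1. The limma fit (lmFit, eBayes, Benjamini-Hochberg) was tested on simulated data. Bright genes at a mean level of 4 or more, cyclic loess, the dimmest probe, members by synonym and the table with its own labels were chosen after seeing the data. Normexp correction used an offset of 50 on median spot and background signals.

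The members and lists were chosen with earlier results of these data known. Members named are the 3 most positive and 3 most negative in each goggle and light comparison, the 3 brightest and 3 dimmest by mean signal, any at 2-fold (there were 0), and RPLP0, RPLP1, RPS6, RPL3, RPL3L and RPL22. The brightness of a probe is not set against that of another gene's probe. Of each list of translation genes, the 2 most positive and 2 most negative for goggles under normal light are named. Some genes are not reported here by name, though they enter the counts and medians. The precision is limited by the number of arrays.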

Additional observations from a re-analysis of the deposited data

How the results depend on the processing

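Each median, each large minus small subunit gap and the order of pools were computed under 13 other settings. A value was taken as moved where it shifted by more than the spot SD of 0.0831, or a count by over 1.5 times. Small medians could thus fall close to 0 without counting as moved. Light in covered eyes, at 0.11, fell to 0.037 with quantile normalization and 0.030 with cyclic loess. Goggles under violet light, at 0.088, fell to 0.031 with the mean of probes and 0.023 with the dimmest probe. None of these counted as moved. No replicate block could be fitted, because each group is 1 array. The limma fit pairs covered with uncovered eyes by light. Medians are given in the order goggles under normal light, goggles under violet light, light in uncovered eyes and light in covered eyes. Median scaling gave -0.013, -0.020 and 0.16 for the first 3 and -0.18 for covered normal minus uncovered violet, with 17 members lowest in uncovered normal and highest in covered violet light, against 8.8% of all genes. It shifts all genes alike within an array. Quantile normalization gave 0.15 for goggles under normal light and 0.15 for light in uncovered eyes. Cyclic loess gave 0.22 for light in uncovered eyes and 19 members in that order, against 14.2% of all genes. The authors' table with the scanner labels gave 0.012 for light in covered eyes. The dimmest probe gave a subunit gap of 0.12 for goggles under normal light. Under the table's labels the medians were -0.11, -0.34, -0.088 and -0.31, the subunit gaps -0.005, -0.086, -0.090 and -0.22, and 0 members had that order. With quantile normalization as well, the medians were -0.037, -0.15, -0.052 and -0.15, the gaps 0.013, -0.12, -0.11 and -0.25, and 3 members had it. In the authors' table with its own labels the medians were -0.012, -0.28, -0.055 and -0.32, the gaps -0.002, -0.12, -0.089 and -0.23, and 2 members had it. Exchanging the labels turns the named order by construction. For the other moves the cause was not tested. limma called 0 members at an adjusted p of 0.05 under every setting run, while its calls over all genes ran from 0 to 234 (median scaling). Leaving out an array leaves no comparison of its group, so only the order of pools was recomputed without 1 array.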
